A study of Mus musculus with 3 samples.

Results

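The genes described here are 10 that are known to rise in old blood stem cells: Selp, Clu, Nupr1, Jam2, Ehd3, Plscr2, Mt1, Gpr183, Alcam and Sult1a1. They were listed by name, with no threshold on any value, and all 10 were found among the 31245 annotated genes counted. Their accessible chromatin was read in LT-HSCs, long-term hematopoietic stem cells that keep blood production going for life. The cells came from wild-type female C57BL/6J mice aged 24 months. Marrow was enriched for c-Kit, a stem and progenitor receptor, and the study's sort took cells without lineage markers, CD48 and CD34 that carried Sca-1, c-Kit and CD150. DOGMA-seq reads ATAC, RNA and antibody tags in the same cell, and its 3 libraries here came from 1 pool. Only old cells were measured here and the RNA matrix was not analysed here, so the data hold neither an age difference nor transcript levels for these genes. There were no replicates, and no source used here gives how many mice were pooled. The bounds printed with each value are exact, at 95%, and cover counting error alone.

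ATAC measures where a transposase can cut DNA, which it does most at active promoters and enhancers. An open promoter is needed for transcription but does not fix its rate. Many transcripts that gain with age in LT-HSCs encode surface and stress proteins, and several are shared with megakaryocytes and platelets. Among the 10 genes, Selp, Jam2 and Alcam encode adhesion molecules, and Gpr183 encodes a receptor for oxysterols that guides immune cells. Clu encodes a chaperone that acts outside cells, Nupr1 a small stress-induced nuclear protein and Mt1 a metal-binding metallothionein. Sult1a1 encodes an enzyme that adds sulfate to phenols. Ehd3 encodes an ATPase of endosome recycling, and Plscr2 belongs to the phospholipid scramblase family.

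The ATAC library held 43705382 fragments, and 4369 barcodes were called as cells. Antibody counts were present for 3724 of them, and the 3629 with at least 10 antibody tags were kept. A kept cell had a median of 10287 nuclear fragments (range 3853 to 45069) and a median of 29 tags (range 10 to 173). In 271 cells (7.47%) more sites than expected were covered by 3 or more fragments, which can happen when 2 cells share a barcode, and these were kept except where stated. The gate was checked on promoters, taken as 1 kb on each side of the gene start. The median promoter level of 8 HSC markers was 13.4 FPM (fragments per 1000000 nuclear fragments of the kept cells). It was 0.403 for 6 myeloid, 0.597 for 6 T cell, 2.27 for 6 B cell, 4.18 for 6 erythroid and 6.10 for 6 endothelial markers. The 6 megakaryocyte markers stood at 10.9, with Itga2b at 21.5, Pf4 at 18.6, Gp9 at 13.4, Gp1bb at 8.39, Treml1 at 4.13 and Ppbp at 0.831 FPM. Single genes overlapped between the lists, since HSC markers ran from 0.494 (Mecom) to 43.7 FPM (Kit). The highest were Kdr at 19.2 among endothelial, Epor at 13.7 among erythroid and Ebf1 at 12.8 among B cell markers. Myeloid markers reached 2.21 and T cell markers 3.84.

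Stretches of DNA at 4 of the genes carry the positions described below. Motif matches are in capitals and the rest is in lower case. The motifs searched on both strands were those of GATA factors (AGATAA or TGATAA), RUNX (TGTGGT), ETS (AGGAAG), AP-1 (TGANTCA), the metal response element (TGCACNC or TGCGCNC), CRE (TGACGTCA), the TATA box (TATAAA) and the CCAAT box. No motif's letters contain those of another. A match describes letters only. The first stretch is the center of the strongest window of the Selp locus, in a Selp intron (GRCm38, chr1:164135464-164135763, plus strand). The second lies before the Selp start (chr1:164115014-164115263, plus strand), where few fragments fell. The third is the center of the strongest window near Nupr1, beyond the end of the gene (chr7:126621449-126621748, minus strand). The fourth is the center of the strongest window of Gpr183, in introns of Gpr183 and of Ubac2 (chr14:121955251-121955550, minus strand). The fifth lies before the Mt1 start, inside the 500-base window at that start (chr8:94178839-94179081, plus strand). The promoter sequences are RefSeq's, and the others were read from the RefSeq genome of the same build.
Selp intron: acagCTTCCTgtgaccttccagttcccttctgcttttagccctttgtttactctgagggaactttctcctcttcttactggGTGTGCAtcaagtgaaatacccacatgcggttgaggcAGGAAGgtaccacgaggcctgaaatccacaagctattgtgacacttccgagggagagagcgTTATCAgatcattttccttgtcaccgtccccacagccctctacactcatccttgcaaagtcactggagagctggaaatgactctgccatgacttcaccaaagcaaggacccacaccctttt
Selp promoter: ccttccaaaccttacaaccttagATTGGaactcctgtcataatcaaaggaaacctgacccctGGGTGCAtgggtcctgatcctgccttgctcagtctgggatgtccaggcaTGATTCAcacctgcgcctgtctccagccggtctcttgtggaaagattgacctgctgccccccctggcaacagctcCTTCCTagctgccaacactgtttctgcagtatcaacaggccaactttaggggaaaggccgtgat
Nupr1 distal site: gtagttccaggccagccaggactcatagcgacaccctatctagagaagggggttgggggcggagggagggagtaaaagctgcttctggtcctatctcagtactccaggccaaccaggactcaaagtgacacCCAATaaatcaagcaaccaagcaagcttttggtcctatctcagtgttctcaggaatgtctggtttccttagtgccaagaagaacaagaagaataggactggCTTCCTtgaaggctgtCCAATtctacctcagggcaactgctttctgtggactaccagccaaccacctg
Gpr183 intron: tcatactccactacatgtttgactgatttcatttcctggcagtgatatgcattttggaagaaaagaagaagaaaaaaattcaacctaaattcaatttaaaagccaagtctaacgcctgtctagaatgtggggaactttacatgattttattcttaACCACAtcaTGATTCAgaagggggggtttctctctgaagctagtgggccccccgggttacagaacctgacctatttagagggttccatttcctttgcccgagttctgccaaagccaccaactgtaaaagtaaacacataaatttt
Mt1 promoter: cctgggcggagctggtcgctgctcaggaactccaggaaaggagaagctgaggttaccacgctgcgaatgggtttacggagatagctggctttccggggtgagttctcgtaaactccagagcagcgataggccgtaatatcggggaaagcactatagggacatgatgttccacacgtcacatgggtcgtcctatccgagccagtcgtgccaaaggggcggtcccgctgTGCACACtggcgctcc

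The Selp intron stretch held 1 GATA, 2 ETS and 1 metal response element match, and the bases printed before the Selp start held 1 match each for ETS, AP-1, the metal response element and the CCAAT box. A second ETS match began at position 20, past the printed bases. The Nupr1 distal stretch held 1 ETS and 2 CCAAT matches, and 16% of it was repeat-masked. The Gpr183 stretch held 1 RUNX and 1 AP-1 match, and 11.7% of it was repeat-masked. Promoter sequences of 300 bases, 250 before and 50 after the RefSeq start, were matched for 7 of the 10 genes: Selp, Nupr1, Ehd3, Mt1, Gpr183, Alcam and Sult1a1. The remaining genes are Clu, Jam2 and Plscr2. An ETS match was present in 4 of the 7 (35.4% of all 32851 promoters), a CCAAT match in 3 (37.4%) and an AP-1 match in 1, Selp (7.81%). Metal response element letters were in 2 of the 7, Mt1 and Selp, against 25.7% of all promoters. Mt1 held 3 such matches, which began at positions −23, 3 and 21 from its RefSeq start. None of the 7 held GATA (18.6% of all promoters), RUNX (16.8%), CRE (1.79%) or TATA letters (13.6%) in these 300 bases. Mt1 also has annotated transcript starts 129 and 159 bases past its first, and the bases just before those starts were not searched.

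The question of how accessible these genes were was answered first at their promoters. Alcam had the highest promoter level of the 10, with 1658 fragments or 43.1 FPM (bounds 41.0 and 45.2), above 86.3% of protein-coding genes. Clu followed with 1172 fragments, 30.4 FPM (28.7 and 32.2). Both promoters were about as accessible as those of the HSC genes Kit (43.7 FPM) and Meis1 (30.9). Mt1 had 14.8 FPM (13.6 and 16.0), Jam2 12.9 (11.8 and 14.1) and Ehd3 12 (10.9 and 13.1). Plscr2 had 9.66 FPM (8.71 and 10.7), just under the median of 9.92 over 21938 protein-coding genes. Sult1a1 had 6.29 (5.52 and 7.13), Nupr1 4.99 (4.31 and 5.74), Selp 3.92 (3.32 and 4.60) and Gpr183 3.25 (2.70 and 3.87). In this order the bounds of Mt1 and Jam2, of Jam2 and Ehd3, and of each neighbouring pair from Sult1a1 to Gpr183 overlapped. Overlap is not a test of a difference, and the differences between these neighbours were not tested. Of the 10 genes, 5 lay above the protein-coding median and 5 below it. The list median was 10.8 FPM.

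**Figure D1:**
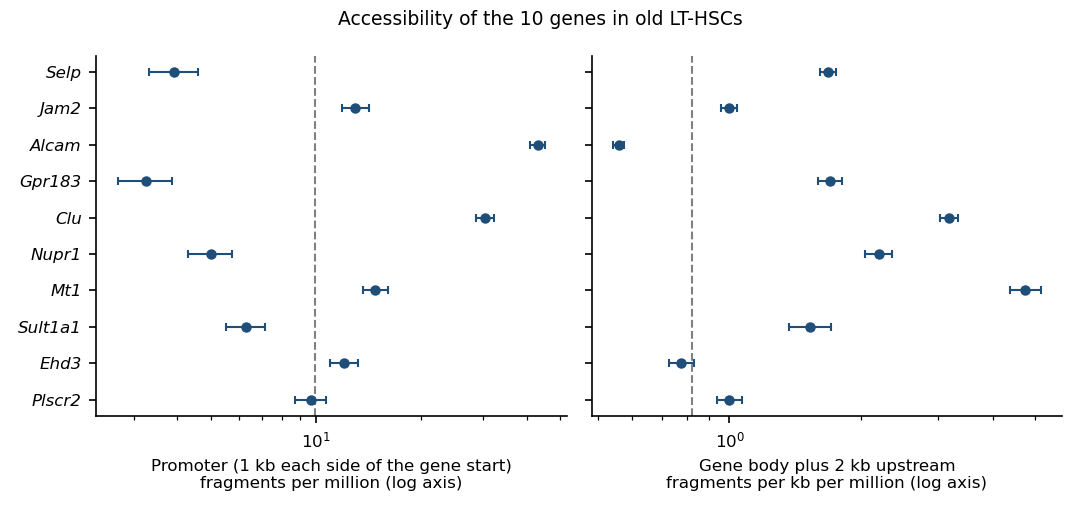
Levels of the 10 genes in 3629 old LT-HSCs. The left panel plots FPM over the promoter and the right panel FPM per kb over the gene body plus 2 kb upstream, both on log axes, with exact 95% Poisson bars; dashed lines are medians of protein-coding genes. Alcam is highest at 43.1 on the left and lowest at 0.558 on the right, and 8 of the 10 genes lie right of the dashed line in the right panel.

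A different order appeared over the gene window, the gene body plus 2 kb upstream, when levels were given per kb of window. Mt1, whose promoter fills 95.8% of its fragments, was highest at 4.75 FPM per kb. Clu had 3.18, Nupr1 2.19, Gpr183 1.70 and Selp 1.68 on the same scale. Sult1a1 had 1.53, Plscr2 0.999, Jam2 0.997, Ehd3 0.776 and Alcam 0.558. Bounds overlapped among Gpr183, Selp and Sult1a1, and between Plscr2 and Jam2. Per kb, 8 of the 10 genes exceeded the protein-coding median of 0.822, all but Ehd3 and Alcam. Alcam thus stood highest at its promoter and lowest per kb, since its gene window is 207.1 kb long. Selp was the opposite case: only 6.35% of its 2378 gene fragments touched its promoter, against a median of 55.2% over genes with at least 200 fragments.

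The strongest window of a locus was at or near the gene's own start in only some of the 10. Transposase insertion ends were counted in 500-base windows over each gene with 10 kb on each side, and the strongest window held from 10.5% of the ends at Gpr183 to 36.9% at Clu. Alcam, an adhesion molecule that binds CD6 on lymphocytes, had its strongest window 929 bases inside the annotated start, with 2760 ends. That window held 30.6% of the ends of the locus in 0.222% of its length and was open in 34.7% of cells. Clu had 1927 ends in a window at its start, 36.9% of its locus, open in 24.3% of cells. Ehd3 had 658 ends, 30.1% of its locus, in a window at its second annotated start, 707 bases past the first. Plscr2 had its strongest window 1051 bases before its start, with 509 ends (18.6%), in intergenic sequence.

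Selp, which encodes the P-selectin of platelets and endothelium, had its strongest window 20349 bases into the gene. This intronic window, whose center is printed above, held 1592 ends, 25.2% of the locus in 0.913% of its length. Fragments reached it in 768 cells, 21.2% of the kept cells (bounds 19.8% and 22.5%), whereas the promoter was open in 3.83%. A second intronic window 23649 bases in held 675 ends, and an intergenic one 5251 bases before the start held 396. The nearest annotated Selp transcript starts were 5705 and 2405 bases from the intronic windows. Promoters at the other annotated Selp transcript starts had between 0.545 and 1.06 FPM, below the 3.92 at the main start.

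At Nupr1 the strongest window was outside the gene. It lay 9263 bases from the annotated start, beyond the gene's end (chr7:126621349-126621848), in sequence with no annotated gene and 3746 bases from the nearest Nupr1 transcript start. It held 1187 ends, 25.2% of the locus, and was open in 16.8% of cells. The next window, with 271 ends, was at the RefSeq start of Nupr1, which is 5391 bases from the GENCODE start used for the promoter level. At that RefSeq start the promoter level was 6.81 FPM in place of 4.99. The same comparison moved Alcam from 43.1 to 50.4 FPM and Ehd3 from 12 to 12.6.

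**Figure D2:**
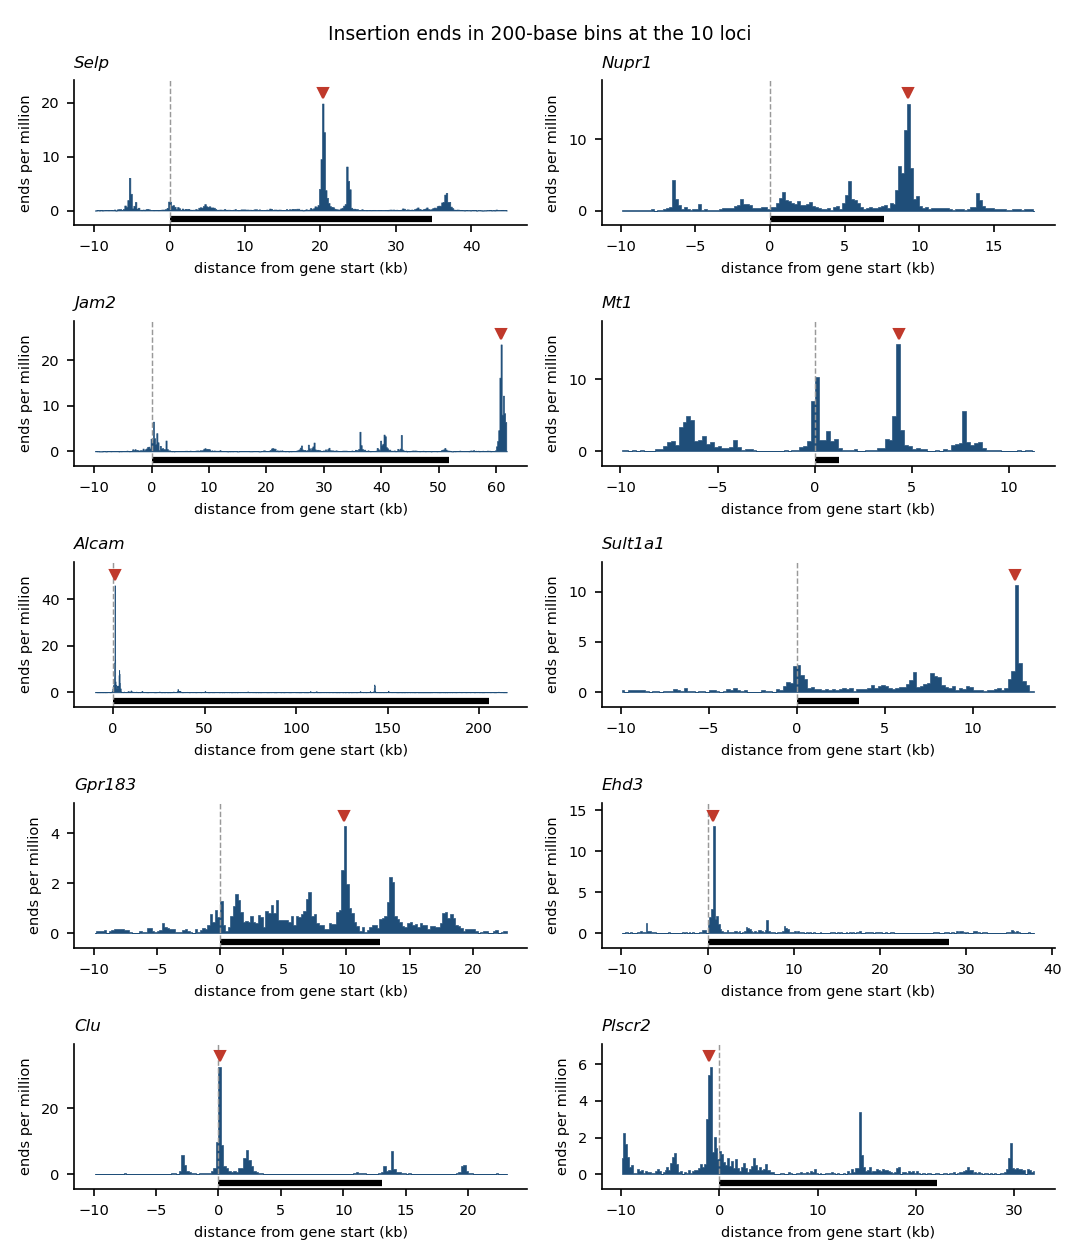
Insertion ends, scaled like FPM, in 200-base bins across the 10 loci, against distance in kb from the annotated gene start (dashed line). Black bars are the genes and red triangles mark the strongest 500-base window. The triangle is within 1051 bases of the start in Alcam, Ehd3, Clu and Plscr2, and far from it in the other 6 genes.

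In 3 loci the strongest window belonged to a neighbour. The strongest window around Jam2, a junctional adhesion molecule, was at the shared start of Gabpa and Atp5j, 60849 bases from the Jam2 start, with 1628 ends. The start of Jam2 itself came next with 415. Around Sult1a1 a window at an annotated transcript start inside Sgf29 held 576 ends and the start of Sult1a1 held 267. Around Mt1 the start of the noncoding gene Gm39228 held 833 ends, the start of Mt1 held 704 and the start of its paralog Mt2 held 464. These neighbour windows lie outside the gene windows and do not enter the gene levels.

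Gpr183 had the least focused locus, and its fragments cannot be assigned to it alone. Its strongest window, 9795 bases into the gene, held 299 ends or 10.5% of the locus. That was 10.1 times the median window of the locus, against 552 times at Alcam and 148.2 times at Clu. The whole Gpr183 window lies inside Ubac2, a gene on the opposite strand, and all 956 Gpr183 fragments were also Ubac2 fragments. At Selp 4.16% of fragments also overlapped an antisense gene, and at Sult1a1 3.35% overlapped Sgf29.

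The share of cells with at least 1 fragment over the gene window ranged widely. Alcam was open in 66.8% of cells (bounds 65.2% and 68.3%), Selp in 43.7%, Jam2 in 39.5% and Clu in 36.1%. Plscr2 was open in 21.1%, Gpr183 in 20.4%, Ehd3 in 19.4% and Nupr1 in 18.4%. Mt1 was open in 13.5% and Sult1a1 in 8.05% (7.18% and 8.98%). At the promoter alone the shares ran from 3.22% for Gpr183 to 35.0% for Alcam. Among 6 non-blood genes, which LT-HSCs should not use, the promoter share had a median of 0.468% and reached 4.05% at Neurod1, a neuronal factor. The other 5 non-blood genes lay between 0.110% and 0.716%. The promoter shares of Gpr183 (3.22%) and Selp (3.83%) were above those 5 and below Neurod1 at the same depth, so neither stood above the highest background. The bounds of Nupr1 overlapped those of Neurod1, and those of the other 7 genes lay above them. At the RefSeq start of Nupr1 the share was 6.34% (5.57% and 7.18%), with bounds above those of Neurod1 (3.43% and 4.74%).

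Depth moved these shares. In the 908 shallowest cells, with a median of 7116 nuclear fragments, Selp was open in 31.6% and Sult1a1 in 6.06%. In the 907 deepest, with a median of 13788, Selp was open in 55.9% and Sult1a1 in 11.8%. After thinning each cell to 6000 fragments, which left out 244 shallower cells, Alcam was open in 49.6% of 3385 cells, Selp in 29.2% and Sult1a1 in 4.76%. Each gene was open in fewer cells than its fragment total and the depths predict, by a factor of 0.894 for Gpr183 to 0.975 for Alcam. The median factor was 0.942 over 19707 genes with at least 200 fragments, with 0.900 and 0.977 as the 5th and 95th percentiles. Of the 10 genes, only Gpr183 and Ehd3 (0.898) fell outside these percentiles. Fragments of a gene thus came in groups within cells, which the counting bounds do not cover.

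**Figure D3:**
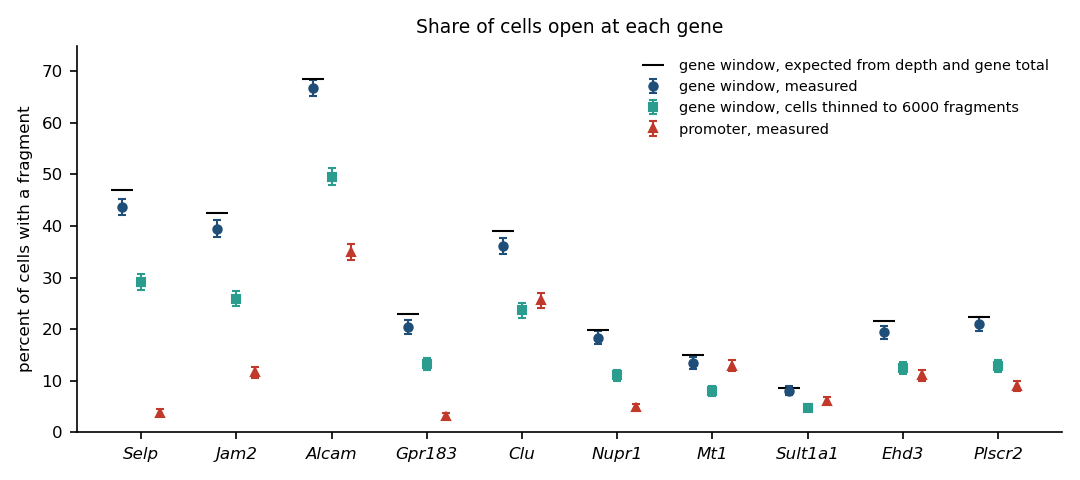
Percent of cells with at least 1 fragment at each of the 10 genes, with exact 95% binomial bars. Circles are the gene window in 3629 cells, squares the same in 3385 cells thinned to 6000 fragments, triangles the promoter, and black lines the share expected from depth and the gene's total. Every circle lies below its black line, and Alcam is highest in every series.

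Cells differed little in how many of the 10 genes were open beyond what depth gives. The mean was 2.87 genes per cell with an SD of 1.47 over cells, and an SD of 1.47 is predicted by treating the genes as independent given depth. No gene was open in 135 cells (136 predicted), 3 genes were open in 935 (937 predicted) and 6 were open in 119 (120.2 predicted). The highest number was 8 genes, in 1 cell (6.53 predicted). The mean was 2.12 in the 908 shallowest cells and 3.64 in the 907 deepest.

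Co-opening asks whether the same cells open 2 of these genes more often than depth gives. With the number predicted from each gene's fragment total, 0 of the 45 pairs had a ratio whose bounds lay above 1. Over each of the 10 genes paired with all genes of at least 200 fragments, 0.00254% did. Of the 45 pairs, 27 (60%) had bounds below 1, and so did 61.3% of the pairs with all genes, so the share in the 10 genes was near the background. The ratio ran from 0.748 for Nupr1 and Gpr183 to 0.99998 for Jam2 and Sult1a1, with a median of 0.853 against 0.875 over all pairs. This prediction uses fragment totals and so also carries the grouping of fragments within cells.

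When the prediction was set to each gene's observed number of open cells, none of the 45 pairs had bounds above 1 (background 0.35%) or below 1 (background 0.396%). At promoters, Selp and Jam2 were both open in 27 cells, a ratio of 1.52 (1.001 and 2.21), and Ehd3 and Alcam in 124, a ratio of 0.822 (0.683 and 0.980). After thinning, Ehd3 and Mt1 had a ratio of 1.37 (1.002 and 1.82). The share of all pairs called was not computed in these settings, and the Selp promoter held only 151 fragments, so nothing is read from these 3 pairs. Over gene windows the median ratio of the 45 was 0.997, from 0.890 for Clu and Sult1a1 to 1.15 for Jam2 and Sult1a1. The adhesion genes Selp and Jam2 were both open in 670 cells, a ratio of 1.02 (bounds 0.940 and 1.095). Selp and Clu were both open in 585 cells, a ratio of 0.968 (0.891 and 1.05). Nupr1 and Sult1a1, whose starts are 45571 bases apart on chromosome 7, were both open in 66 cells, a ratio of 1.13 (0.873 and 1.44). The best measured pair, Selp and Alcam in 1087 cells, had a ratio of 0.990 (0.932 and 1.05). For rare pairs the bounds were wide: at Mt1 and Sult1a1, both open in 46 cells, they ran from 0.782 to 1.42.

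**Figure D4:**
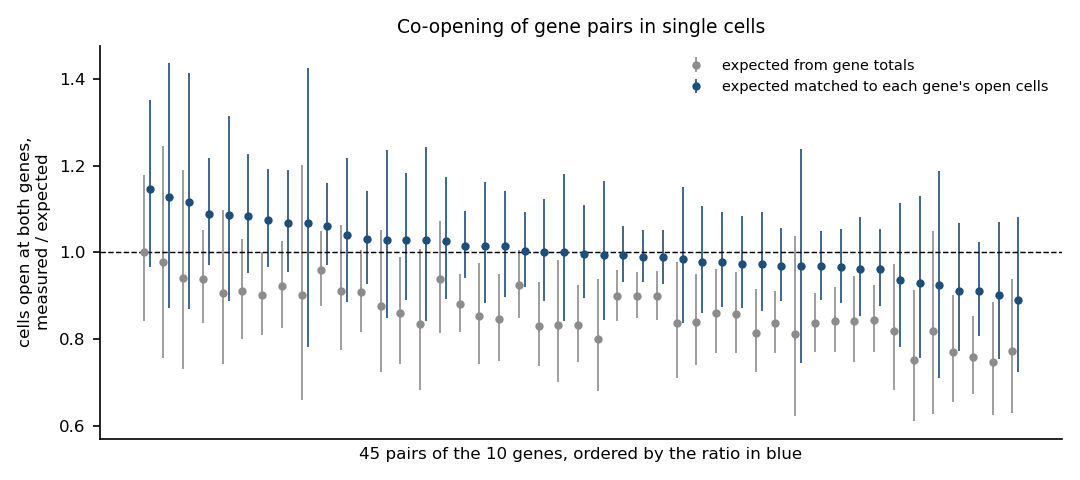
Cells open at both genes divided by the number predicted, for the 45 pairs of the 10 genes, with exact 95% Poisson bars. Grey points use each gene's fragment total and blue points each gene's number of open cells. Grey points run from 0.748 to 0.99998 and blue points from 0.890 to 1.15, and every blue bar crosses 1.

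The study chose CD61, CD274, CD357 and CD27 as surface markers of LT-HSC subtypes, so levels of the 10 genes were compared between cells above and at or below the median count of each antibody. Cells above the median also had more tags of all antibodies (medians of 33 to 39 against 22 to 28) and more cells with excess site overlaps (10.0% to 11.9% against 5.16% to 6.17%). Median ATAC depth was alike in the comparison by each antibody, between 10222 and 10487 fragments. The part of tag totals in the results was not tested, and summed ratios without the cells with excess overlaps are given beside the results. Each gene's ratio was recomputed under 13 alternatives that changed the cells, window, counting, scaling, antibody scale or split (14 by CD27). The alternative in insertion ends counts nearly every fragment by both ends. Its bounds are therefore narrower without new fragments, and a call gained there adds no support of its own. Ratios are on the log2 scale with 0.5 added to each count.

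CD61, the integrin beta chain of megakaryocytes and platelets, divided 1695 cells from 1934. Summed over the 10 genes, the level was 400.4 FPM in CD61-high and 392.3 in CD61-low cells, a log2 ratio of 0.03 (bounds −0.02 and 0.08), and 0.03 without the cells with excess overlaps. Clu was the only 1 of the 10 genes with bounds above 0, and none had bounds below 0. Over 25489 genes with at least 20 fragments, 3.78% had bounds above 0 and 3.68% below. A count of 1 of 10 is near these shares. Bounds narrow with the fragment total, in which the 10 genes ranked from the 41.9th percentile of all genes (Sult1a1) to the 96.4th (Alcam). Clu had 51.0 FPM in CD61-high and 45.04 in CD61-low cells, a log2 ratio of 0.18 (0.05 and 0.31), and 0.19 without the cells with excess overlaps. Its promoter gave 0.18 (0.01 and 0.35). The bounds of Clu stayed above 0 in 9 of 13 alternatives and held 0 in the others, among them the cap of 2 fragments per cell and gene (0.14). From the lowest to the highest CD61 bin, Clu measured 45.5, 44.1, 49.3 and 52.8 FPM. The bounds of the lowest bin (42.0 and 49.1) and of the highest (48.1 and 57.9) overlapped, and their difference was not tested. The other 9 genes ran from −0.30 for Sult1a1 to 0.22 for Mt1, with bounds that held 0. The ratio of Sult1a1 was −0.54 (−0.92 and −0.18) without the cells with excess overlaps and −0.47 without the deepest 5% of cells, and its bounds lay below 0 in 7 of 13 alternatives. At 50 or more tags it was 0.72, with bounds that held 0. The bounds of Mt1 lay above 0 in 4 of 13.

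CD274, the checkpoint ligand PD-L1, divided 1728 cells from 1901. The summed level was 406.3 FPM in CD274-high and 386.6 in CD274-low cells, a log2 ratio of 0.07 (0.03 and 0.12). It was 0.07 (0.02 and 0.12) without the cells with excess overlaps. With each cell and gene capped at 2 fragments the ratio was 0.05 and the bounds held 0, and at 50 or more tags it was −0.0023. Alcam gave 2262 of the 7564 summed fragments in CD274-high cells and 2190 of 7688 in CD274-low cells. The sum without Alcam was not computed. Bounds lay above 0 for 2 of the 10 genes (5.33% of all genes) and below 0 for none (5.83%). Alcam had 121.5 against 110.1 FPM, a ratio of 0.14 (0.06 and 0.23), and Gpr183 had 26.6 against 23.1, a ratio of 0.20 (0.02 and 0.39). Alcam kept bounds above 0 in 10 of 13 alternatives. Its promoter alone gave 0.07 and cells with 50 or more tags −0.152, both with bounds that held 0. Gpr183 kept bounds above 0 in 7 of 13, and its lowest ratio was 0.03, at its promoter. The other 8 genes ran from −0.12 for Ehd3 to 0.25 for Sult1a1, whose bounds lay above 0 in 3 of 13 alternatives. Across the 4 CD274 bins Gpr183 measured 21.0, 25.7, 24.4 and 28.7 FPM. In these cells 6 myeloid markers also had a summed ratio of 0.14. The 4 of them with at least 20 fragments had a median ratio of −0.095, and 1 had bounds above 0. The 6 non-blood genes had a summed ratio of −0.28 and a median of −0.31. The part of either in the ratios of the 10 genes was not tested.

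CD357, the TNF receptor GITR, went with a lower summed level of the 10 genes. The summed level was 377.6 FPM in 1365 CD357-high cells and 407.8 in 2264 CD357-low cells, a log2 ratio of −0.11 (−0.16 and −0.06). Bounds lay below 0 for 4 of the 10 genes, against 3.88% of all genes, and above 0 for none (3.52%). Mt1 had 13.5 against 16.6 FPM, a ratio of −0.30 (−0.56 and −0.05). Gpr183 had 22.4 against 26.3, a ratio of −0.23 (−0.43 and −0.04). Clu had 44.2 against 50.2, a ratio of −0.18 (−0.32 and −0.04). Selp had 58.2 against 64.0, a ratio of −0.14 (−0.26 and −0.01). The other 6 genes had ratios between −0.15 for Ehd3 and 0.04 for Plscr2. At promoters alone the bounds stayed below 0 for Clu (−0.21) and Mt1 (−0.29). They held 0 for Gpr183 (−0.05) and Selp (−0.09), whose promoters held few fragments. All Gpr183 fragments are also Ubac2 fragments, so its ratio cannot be assigned to it alone.

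Without the cells with excess overlaps the summed ratio by CD357 was −0.09 (−0.13 and −0.04). Clu kept bounds below 0 there (ratio −0.21), while the bounds of Selp (−0.09), Mt1 (−0.25) and Gpr183 (−0.19) held 0. Over the 13 alternatives bounds stayed below 0 in 12 for Clu, 8 for Mt1, 7 for Selp and 6 for Gpr183. They also lay below 0 in 3 each for Ehd3 and Alcam. In 165 high and 198 low cells among those with at least 50 tags, the summed ratio was 0.01, with bounds from −0.13 to 0.15 that held both 0 and the ratio of all cells. Among cells with 20 to 60 tags, the ratio was −0.12. By CD357 bin the summed level was 418.4 FPM at 0 or 1 tag, 395.8 at 2 or 3, 372.8 at 4 or 5 and 382.4 at 6 or more. The bounds of the lowest bin, 407.2 and 429.9, overlapped those of the next bin (384.2 and 407.7), and that difference was not tested. They lay above those of the bins at 4 or 5 and at 6 or more. The median log2 ratio was −0.11 over the 10 genes and 0.00 over all genes. The 8 HSC markers had a summed ratio of 0.03 (0.00 and 0.06) but a median ratio of −0.005. The 6 erythroid markers had a summed ratio of 0.12 (0.02 and 0.23) and a median of 0.11.

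CD27, a TNF receptor of lymphocytes and progenitors, had counts of 2 or more in 825 cells and fewer in 2804. The summed level was 399.8 FPM in CD27-high and 395.0 in CD27-low cells, a ratio of 0.02 (−0.04 and 0.07), and 0.0049 without the cells with excess overlaps. No gene of the 10 had bounds above 0 (3.16% of all genes) or below 0 (3.41%). The ratios ran from −0.08 for Ehd3 to 0.08 for Plscr2.

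The study's gates combine the 4 antibodies: the PLT gate for platelet-biased cells takes CD61 and CD274 high with CD357 and CD27 low, and the MUL gate for multi-lineage cells takes the reverse. At medians they held 342 and 61 cells, with median tags of 37 and 26 and median depths of 10101 and 9771 fragments. Cells with excess overlaps made up 7.02% of the PLT gate and 1.64% of the MUL gate. The part of these differences in the ratios was not tested. The summed level was 422.8 FPM in the PLT gate and 344.8 in the MUL gate, a ratio of 0.29 (0.08 and 0.51), on 1497 and 207 fragments. These gates share cells with the comparisons above and are not independent of them. Clu alone had bounds above 0 (2.79% of 19951 genes) and none of the 10 had bounds below 0 (2.97%). Here too a count of 1 of 10 is near these shares. Clu had 59.9 against 36.6 FPM, a ratio of 0.68 (0.07 and 1.41), from 212 and 22 fragments. Its bounds stayed above 0 in 9 of 13 alternatives, and at 50 or more tags its ratio was 0.02 (−1.29 and 1.29). Selp had 63.0 against 41.6, a ratio of 0.57 (−0.0027 and 1.26). The remaining 8 genes ran from −0.65 for Plscr2 to 0.61 for Mt1, with bounds that held 0. The bounds of Alcam (0.29) lay above 0 in 4 of 13 alternatives. Without excess-overlap cells, with medians set again, the summed ratio was 0.23 (0.05 and 0.42). At tertiles (0.17), at promoters (0.24) and with at least 50 tags (0.21) the bounds held 0.

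**Figure D5:**
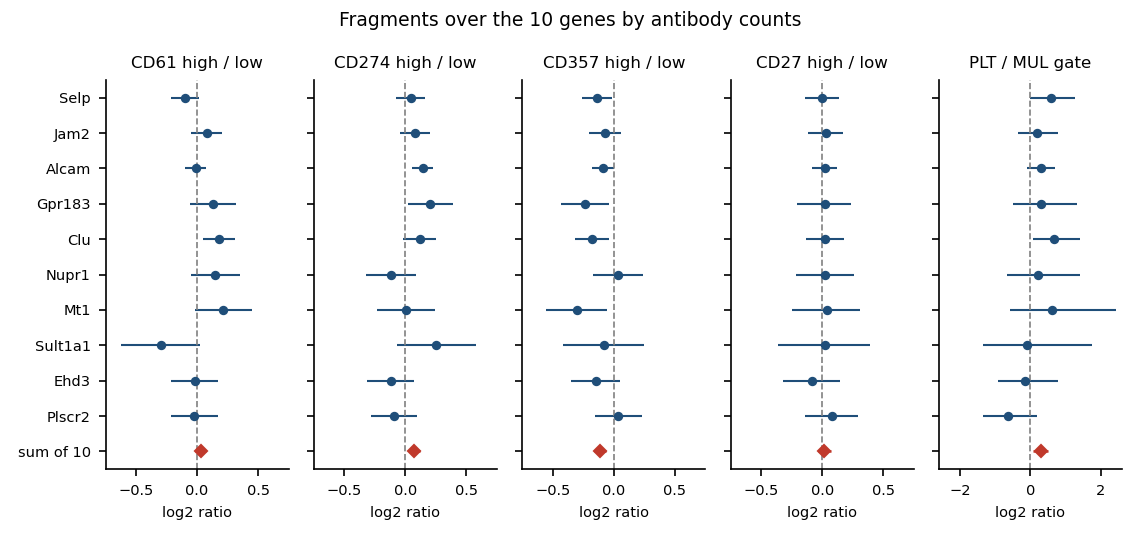
Log2 ratio of depth-scaled fragments over each of the 10 genes (blue circles) and their sum (red diamonds), for cells above against at or below the median count of 4 antibodies and for the PLT against the MUL gate, with exact 95% bars. The dashed line is 0. In the CD357 panel 8 of the 10 circles lie left of 0 and the sum is at −0.11; in the gate panel, drawn on a wider axis, the sum is at 0.29.

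Other genes known to rise in old LT-HSCs gave a reference list of 13: Vwf, Slamf1, Neo1, Aldh1a1, Cavin2, Itga2b, Itgb3, Tm4sf1, Gstm2, Fhl1, Cd38, Ghr and Mt2. Their median promoter level was 13.4 FPM, from 0.156 at Aldh1a1 to 36.1 at Ghr, and 7 of 13 were above the protein-coding median. By CD357 their summed ratio was −0.06 (−0.09 and −0.03), and 2 of the 13 had bounds below 0 (3.88% of all genes), Mt2 and Vwf. In the other comparisons bounds lay above 0 for Slamf1 by CD61 (3.78% of all genes) and for Tm4sf1 by CD274 (5.33%) and CD27 (3.16%). They lay below 0 for Mt2 by CD274 (5.83%) and for Cd38 and Mt2 by CD27 (3.41%). A count of 1 of 13 is near these shares, while the 2 of 13 below 0 by CD27 exceeded the share of 3.41%. By CD357 Mt2 had −0.26, near the −0.30 of its neighbour Mt1. By CD274 Mt2 had −0.48 (−0.73 and −0.226) and Mt1 had 0.00 (−0.235 and 0.24), bounds that overlapped, and the difference was not tested. By CD27 Mt2 had −0.57 (−0.91 and −0.252) and Mt1 had 0.04 (−0.246 and 0.31). These bounds did not overlap, and this difference was not tested either. By the PLT and MUL gates the summed ratio of the 13 was −0.02 (−0.15 and 0.12), against 0.29 in the 10. The bounds of these sums overlapped between 0.08 and 0.12, and their difference was not tested.

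Relatives of the 10 genes placed their levels. Selp (3.92 FPM at the promoter) stood above Sele (0.338), which encodes the selectin of endothelium. The P-selectin ligand gene Selplg had 12.3 FPM. Jam2 (12.9) was close to Jam3 (12.8) and below F11r (22.2), with overlapping bounds for the first pair. Cd6, the partner of Alcam, had 0.805 FPM against 43.1 for Alcam. Ehd3 (12) was well below Ehd1 (58.8) and Ehd4 (56.3), while its bounds overlapped those of Ehd2 (10.4), and Plscr2 (9.66) was the lowest of 4 scramblase genes, of which Plscr3 was highest at 38.8. Mt1 (14.8) and Mt2 (13.4) had overlapping bounds, and Mt4 had 0.208. The metal-sensing regulator gene Mtf1 had 49.98 FPM. Sult1a1 (6.29) was the only 1 of 5 sulfotransferase genes above 1 FPM. The oxysterol enzyme genes Ch25h, Cyp7b1 and Hsd3b7 had 8.10, 16.7 and 15.5, all above the receptor gene Gpr183 at 3.25. The clusterin receptor genes Lrp8, Vldlr and Lrp2 had 26.2, 11.1 and 7.30, below Clu at 30.4.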

How the data were processed

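ATAC fragments and antibody tags were measured in LT-HSCs of 24-month-old mice. Both deposited files hold counts that the authors did not normalize. The submitters' processing notes name Cell Ranger ARC 2.0.2 and mm10, and per the file headers duplicate read pairs were collapsed to 1 fragment and ends shifted for the transposase. Antibody counts came from CITE-seq-Count, with the version not given in the sources used here. Values per barcode (cell call, RNA UMIs) came from the authors' deposited count metrics.

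All 3724 barcodes of the antibody table were called cells, and those with at least 10 tags were kept. The study's other filters were not applied again, and doublets were not removed. Genes were GENCODE M21 on mm10. A fragment counted once if it overlapped a window, and levels were scaled by the 38498362 nuclear fragments of the kept cells. Bounds were exact Poisson, Clopper-Pearson or conditional binomial at 95%. Group comparisons used genes with at least 20 fragments. No test was run between cells of 1 pool. All 10 genes entered every result, and those not named in a comparison are given by their range. The families and reference list were named with them, and 5 further genes by their correlation with the summed 10. One member of the families is not reported here. The 10 genes and all lists were chosen with earlier results of these data known. The scripts were tested on simulated data. Software was Python 3.11.15, numpy 2.4.6, scipy 1.17.1, pandas 2.3.3, statsmodels 0.14.6 and matplotlib 3.10.9. Alternatives varied the cells, window, counting, scaling, antibody scale, split and predicted number.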

Additional observations from a re-analysis of the deposited data

Results flagged for a closer look

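The 645 called cells without antibody counts entered no comparison, yet they held 501 fragments over the 10 genes. These cells were shallow, with a median of 1805 nuclear fragments. Their summed level was 390.7 FPM (bounds 357.2 and 426.5), against 396.2 (389.9 and 402.5) in the kept cells. They are listed because signal was present in data outside the comparisons.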

How the results depend on the processing

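The level of 396.2 FPM became 141.3 over promoters, 364.6 over gene bodies alone, 787.7 in insertion ends, 356.1 with at most 2 fragments per cell and gene, 878.1 when scaled by promoter fragments and 371.3 without Gpr183, each by construction. The median share of open cells, 20.7%, became 22.6% at 50 or more tags, 9.98% at promoters, 19.1% over bodies alone and 13.1% after thinning. Pairs with bounds above 1 went from 0 to 1 with the cap. Pairs with bounds below 1 went from 27 to 6 at 50 or more tags, 4 at promoters, 45 in insertion ends (each fragment has 2 ends), 4 with the cap, 6 after thinning and 0 when predicted from open cells. At 50 or more tags (363 cells) the summed ratio by CD274 was −0.0023, Alcam by CD274 −0.152, the summed ratio by CD357 0.0093 and Mt1 by CD357 0.00074, all opposite in sign to the main values, and the cause was not tested. The ratio by CD27 at promoters was 0.0885. The summed ratio kept its sign in 13 of 14 alternatives by CD274 and 13 of 14 by CD357. The prediction from open cells, the RefSeq starts, the omission of Gpr183 and the range of 20 to 60 tags were chosen after seeing the data. No paired analysis was possible because the series holds 1 pool of cells. Small differences at the rarest genes were not detectable at this depth.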

Other observations

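Across 3629 cells, the genes whose depth-adjusted accessibility went most with the summed 10 genes, among those at least 100 kb away, were Adk (correlation 0.081), Rasef (0.080), Col16a1 (0.075), Dab2ip (0.074) and Flot1 (0.070). The median over 19657 genes was 0.009 and the 99th percentile 0.049, so these values were weak, and cells of 1 pool share the library and its depth.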
